A study of Homo sapiens with 6 samples.

Results

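XBP1 and 7 other transcripts of the unfolded protein response were followed in RNA that co-purified with an anti-FLAG antibody from mitotic human cells. The members were the rows of the array table whose gene symbol is XBP1, ATF4, ATF6, DDIT3, HSPA5, ERN1, EIF2AK3 or HERPUD1, and each symbol had 1 row among the 37879 targets. The cells were HEK293T, an established human embryonic kidney line that is readily transfected, and both groups were held in prometaphase with nocodazole, which blocks microtubule assembly. By the labels its dose was 50 ng/ml and the block lasted 15 h, while the methods of the study give a longer block. Control IPs came from cells with the empty vector, and Stau1 IPs came from cells transfected with Stau155-FLAG, a tagged form of the double-stranded RNA-binding protein Staufen1. Both used the anti-FLAG antibody, and each group had 3 arrays (Illumina HumanWG-6 V3 BeadChips). The endogenous Staufen1 carries no tag and was present in both groups.

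The endoplasmic reticulum (ER) folds secreted and membrane proteins, and the unfolded protein response raises its capacity when unfolded proteins accumulate. Sensors in the ER membrane start it. IRE1, encoded by ERN1, cuts a short intron out of the XBP1 mRNA so that an active transcription factor is made. PERK, encoded by EIF2AK3, phosphorylates the initiation factor eIF2 alpha, which lowers translation in general and favours that of ATF4, a factor that in turn raises DDIT3 (CHOP). ATF6 is cut in the Golgi and its released part enters the nucleus. HSPA5 (BiP) and HERPUD1 are target genes, a chaperone and a component of ER-associated degradation. Staufen1 binds double-stranded RNA, and a long-range duplex in the XBP1 mRNA is a known example of such a site.

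The promoters of 3 members hold elements through which the response is known to act, and these are shown because through them XBP1, HSPA5 and HERPUD1 are themselves targets of the response. In RefSeq promoters of GRCh38.p14, which run from 250 bases before a gene's start to 50 after it, 4 motifs were searched on both strands. They were the ER stress element (CCAAT and CCACG with 9 bases between them), which ATF6 and XBP1 read together with NF-Y, ERSE-II (ATTGG and CCACG with 1 base between them), the X-box core TGACGTGG and the C/EBP-ATF element TGATGCAA. Both stress elements end in CCACG, letters that the X-box core also holds when read on its other strand. All 8 members had a window. Capitals mark the letters of the motif, 5′ to 3′ along the gene, with 5 bases on each side:
XBP1, ER stress element, chr22:28800598-28800626, minus strand: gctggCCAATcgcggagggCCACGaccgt
HSPA5, ER stress element, chr9:125241386-125241414, minus strand: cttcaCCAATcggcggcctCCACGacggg
HERPUD1, ERSE-II, chr16:56932020-56932040, plus strand: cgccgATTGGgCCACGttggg
HERPUD1, C/EBP-ATF element, its letters on the other strand, chr16:56931961-56931978: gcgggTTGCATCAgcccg

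The element began 52 bases before the start of XBP1, in 1 of its 2 windows, and 66 bases before that of HSPA5. The full ER stress element was in 0.0769% of 35116 promoter windows, ERSE-II in 0.0541%, the X-box core in 0.729% and the C/EBP-ATF element in 0.866%. ERN1, EIF2AK3, ATF6, ATF4 and DDIT3 held none of these letters in the windows searched. A match is a description of the sequence and says nothing of binding in these cells.

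The array labelled Stau1 IP 2 stood apart from its group, and the one labelled control IP 2 was about as close to Stau1 IP arrays 1 and 3 as to its own group. Each member's result is therefore given with and without the arrays numbered 2. Over 9884 targets detected on all 6 arrays (a detection p under 0.05), Stau1 IP arrays 1 and 3 correlated at 0.996, but Stau1 IP array 2 correlated with them at 0.940 and 0.943. With control IP arrays 1, 2 and 3 it correlated at 0.962, 0.954 and 0.977. Control IP array 2 correlated at 0.983 and 0.984 with Stau1 IP arrays 1 and 3 and at 0.977 and 0.982 with control IP arrays 1 and 3, which correlated with each other at 0.983. The arrays numbered 2 may have been exchanged. That was not tested, and an exchange would change the size, and could change the sign, of every difference by the labels. The labels were kept throughout. Each array detected between 11635 and 13054 targets and read a target by a median of 41 beads. STAU1 itself did not separate the groups as labelled. Its signal was 2499, 3246 and 2758 in control IPs against 2845, 1857 and 3130 in Stau1 IPs, with a log2 difference of -0.15 (SE 0.16, adjusted p = 0.878). Without both arrays numbered 2 the difference turned to 0.062 (SE 0.048, adjusted p = 0.685), and the remaining Stau1 IP arrays lay above the remaining control IP arrays. Whether the STAU1 probes also read the transfected construct is not given in the sources used here. VIM, KRT8, KRT18, NEFL, NEFM and INA, markers of this line, were detected on all 6 arrays, and PTPRC, CD3D, HBB and ALB, markers of blood and liver, on 0. Of 6 mitotic transcripts, 5 were detected on all 6 arrays and CENPE on 3.

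The comparison asked which of these mRNAs were more abundant in Stau1 IPs than in control IPs. It measured RNA in the immunoprecipitate, so a transcript that was more abundant in the cells and one of which a greater share was bound cannot be told apart here. The study also compared total RNA of such cells and reports few changes, but that RNA was not analysed here. Grouped by the labels, none of the 8 members passed the study's limits (a fold over 2.5 and an unadjusted p under 0.05) in either direction, in limma over all 37879 targets. The same limits were passed by 1 target that was higher in Stau1 IPs, or 0.00264% of those tested, and by 0 that were lower, or 0%. The study, with other software, reports many more enriched transcripts at this fold, and the reason for the difference was not tested. At an unadjusted p under 0.05 alone there were 3369 targets, and 1 target, TTC3, passed a Benjamini-Hochberg adjusted p of 0.05. The normalized signals of the 2 groups overlapped for all 8 members. Among all targets, every Stau1 IP array lay above every control IP array on that scale for 6.71% and below for 7.76%. In the text that follows, a signal is the deposited bead intensity, given for arrays 1, 2 and 3 of a group in that order, a log2 difference is Stau1 IP minus control IP on the normalized scale, and p-values were adjusted over all targets.

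**Figure D1:**
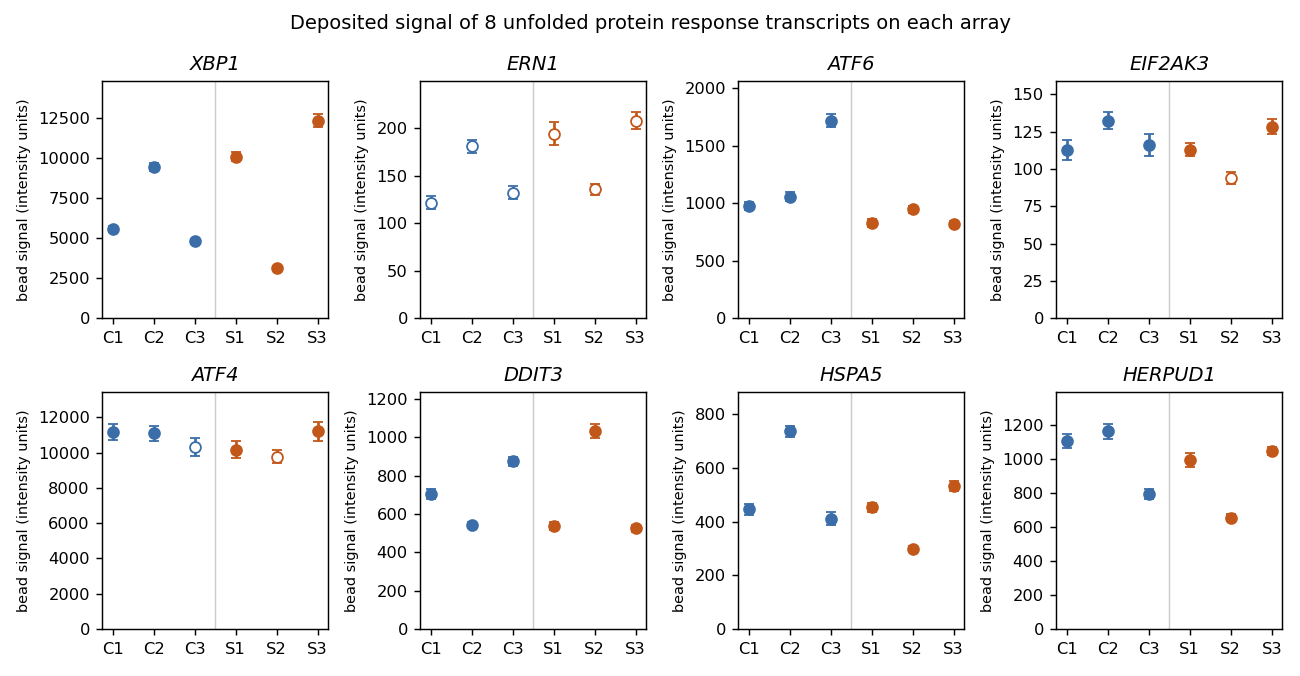
Deposited bead signal (intensity units, linear axes from 0) of the 8 transcripts on control IP arrays 1 to 3 (C1 to C3, blue) and Stau1 IP arrays 1 to 3 (S1 to S3, orange). Bars are the standard error between beads and open circles mark a detection p of 0.05 or more. XBP1 lay between 3120 on S2 and 12358 on S3, and the deposited signals of the groups overlapped in every panel but that of ATF6.

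XBP1, the transcription factor of the IRE1 arm, was the member whose signal varied most between arrays. It read 5608, 9444 and 4823 in control IPs against 10109, 3120 and 12358 in Stau1 IPs. Control IP array 2 and Stau1 IP arrays 1 and 3 were high, and Stau1 IP array 2 was the lowest of all. The highest signal was 3.96 times the lowest, while the standard error between beads was between 2.13% and 3.34% of the signal on each array. On the normalized log2 scale the control IPs averaged 12.74 ± 0.42 (SD, n = 3) and the Stau1 IPs 13.00 ± 1.06 (SD, n = 3). The log2 difference was 0.26 (SE 0.56, 95% interval -1.16 to 1.67, adjusted p = 0.952). An exact two-sided permutation test over the arrays gave p = 0.80, where 3 arrays against 3 can reach no less than 0.10. The target combines 2 probes, as its fractional bead numbers show. Whether they read the spliced mRNA, the unspliced mRNA or both is not given in the sources used here.

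Taken singly, Stau1 IP array 2 read XBP1 3.56-fold under the mean of the other 2 Stau1 IP arrays, and control IP array 2 read it 1.63-fold over the mean of the other 2 control IP arrays. Leaving out Stau1 IP array 2 alone gave a log2 difference of 0.87 (adjusted p = 0.224), and leaving out control IP array 2 alone gave 0.49 (adjusted p = 0.927). Without Stau1 IP array 1 or 3 the sign turned, at -0.014 and -0.083. Without both arrays numbered 2, XBP1 was 2.15-fold higher in Stau1 IPs, a log2 difference of 1.10 (SE 0.094, 95% interval 0.84 to 1.36, adjusted p = 0.0188, 2 arrays against 2). Those arrays were left out with their distance from the groups known, so the small spread that remained follows in part from that choice, and the p-value is no independent support. The call was lost with neqc of limma, which replaced the background correction, the transformation and the normalization together. It gave a larger difference, 1.26 (SE 0.12, unadjusted p = 0.00247, adjusted p = 0.0921).

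ERN1, the sensor that splices XBP1, was not detected on any array. Its signal was 122, 181 and 132 in control IPs against 194, 135 and 208 in Stau1 IPs, and its detection p lay between 0.144 and 0.354. The same arrays as for XBP1 were the brighter ones, but no fold is given for a target that failed the detection p in both groups. The target combines 2 probes. On every array its signal lay above that of EIF2AK3, which was detected on 5 arrays. A failed detection p therefore does not show that ERN1 was absent.

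ATF6, the sensor that is released by cleavage, read 977, 1055 and 1720 in control IPs against 826, 946 and 818 in Stau1 IPs. Control IP array 3 alone was far above the others, and the other 5 arrays lay between 818 and 1055. The deposited signals of the groups did not overlap, but after normalization Stau1 IP array 2 (10.26 on the log2 scale) lay above control IP array 2 (10.12). The log2 difference was -0.49 (SE 0.26, adjusted p = 0.697, exact permutation p = 0.20). Without control IP array 3 it was at its smallest, -0.24. Without both arrays numbered 2 it was -0.81 (SE 0.25, adjusted p = 0.220), still short of the threshold.

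EIF2AK3, the PERK sensor, was close to background, with signals of 113, 132 and 116 in control IPs against 113, 94.0 and 128 in Stau1 IPs. All 3 control IPs and 2 of the 3 Stau1 IPs detected it, and Stau1 IP array 2 did not. Its log2 difference was -0.12 (SE 0.081, adjusted p = 0.780), and -0.032 (SE 0.040, adjusted p = 0.843) without both arrays numbered 2. At such signals the transformation understates a change, since it acts as the log2 of the signal plus a constant.

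ATF4, the factor translated when PERK is active, was the steadiest member. Its signal was 11176, 11104 and 10317 in control IPs against 10162, 9771 and 11212 in Stau1 IPs. The highest signal was 1.15 times the lowest, and each array's standard error between beads was between 3.86% and 4.86%. The log2 difference was -0.026 (SE 0.072, 95% interval -0.21 to 0.15, adjusted p = 0.963), an interval that leaves out the 2.5-fold limit on both sides. Without both arrays numbered 2 it was 0.028 (SE 0.039, adjusted p = 0.856). The target combines 3 probes, and its combined detection p exceeded 0.05 on control IP array 3 and on Stau1 IP array 2 in spite of these signals.

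DDIT3, which encodes CHOP, a factor that promotes cell death under lasting ER stress, had nearly the opposite order of arrays to XBP1. It read 704, 541 and 875 in control IPs against 537, 1032 and 525 in Stau1 IPs. Stau1 IP array 2 was the brightest, and control IP array 2 lay beside Stau1 IP arrays 1 and 3. By the labels the log2 difference was -0.098 (SE 0.39, 95% interval -1.07 to 0.87, adjusted p = 0.978). Singly, Stau1 IP array 2 was 2.17-fold over the mean of the other Stau1 IP arrays, and control IP array 2 was 1.66-fold under the mean of the other control IP arrays. With the arrays numbered 2 left out, DDIT3 was 1.64-fold lower in Stau1 IPs (log2 difference -0.72, SE 0.094, adjusted p = 0.0375), and the same caution applies. This call too was lost with neqc, which gave -0.46 (adjusted p = 0.172).

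HSPA5, the ER chaperone that also holds the sensors inactive, read 446, 737 and 411 in control IPs against 453, 298 and 533 in Stau1 IPs. Control IP array 2 was the highest and Stau1 IP array 2 the lowest. The log2 difference was -0.27 (SE 0.15, adjusted p = 0.720), and -0.048 (SE 0.078, adjusted p = 0.886) without both arrays numbered 2. HERPUD1, which takes part in ER-associated degradation, read 1105, 1162 and 792 in control IPs against 991, 655 and 1045 in Stau1 IPs. Stau1 IP array 2 was again the lowest, and the log2 difference was -0.20 (SE 0.15, adjusted p = 0.823), or -0.083 (SE 0.18, adjusted p = 0.922) without both arrays numbered 2. By deposited signal, HSPA5 was highest on the same 3 arrays as XBP1, with which it shares the promoter element, and both were lowest on Stau1 IP array 2. After normalization control IP array 1 took the place of Stau1 IP array 1 among the 3 highest for HSPA5.

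**Figure D2:**
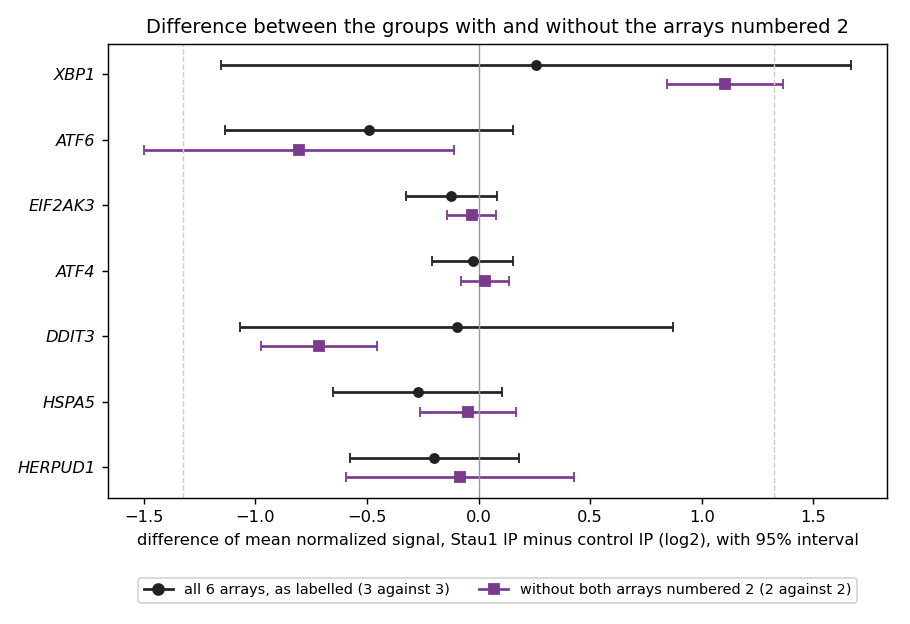
Difference of the mean normalized signal (log2, Stau1 IP minus control IP) of the 7 members detected on any array, from all 6 arrays as labelled (black circles) and without both arrays numbered 2 (purple squares). Bars are 95% intervals and dashed lines mark a 2.5-fold difference. XBP1 went from 0.26 to 1.10 and DDIT3 from -0.098 to -0.72, while ATF4 stayed near 0.

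Without both arrays numbered 2, 3 of the 8 members passed an adjusted p of 0.05, XBP1, DDIT3 and the undetected ERN1, where 5.46% of all targets did (3.17% higher and 2.29% lower in Stau1 IPs). Among targets detected on all 6 arrays, 1685 of 9884 did. No member reached the 2.5-fold limit, which 0.602% of all targets passed upwards and 0.0396% downwards. Both remaining Stau1 IP arrays lay above both control IP arrays for 2 members and below them for 2. Over all targets these shares were 22.2% and 24%, so the separation of the members was close to the background of the array.

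The order of the arrays fell into opposite patterns. On the normalized scale XBP1 and ERN1 were highest on control IP array 2 and Stau1 IP arrays 1 and 3, an order that 9.58% of all targets and 16.7% of those detected on all 6 arrays also had. ATF6 and DDIT3 were highest on control IP arrays 1 and 3 and Stau1 IP array 2, as were 9.74% of all targets and 17.8% of those detected. These were the 2 most frequent of the 20 possible sets of 3 highest arrays. HSPA5, HERPUD1, EIF2AK3 and ATF4 each had another set.

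The targets most like XBP1 over the 6 arrays were FBXO21 (Pearson r = 0.997), PBX3 (0.996), CSDA (0.994), RYK (0.993) and CADM1 (0.993). FBXO21 encodes a ubiquitin ligase subunit, PBX3 a homeobox factor, CSDA a cold shock domain protein, RYK a receptor of Wnt ligands and CADM1 a cell adhesion molecule. PBX3 read 1654, 3547 and 1470 in control IPs against 4127, 911 and 4838 in Stau1 IPs. As for XBP1, Stau1 IP array 2 was the lowest and Stau1 IP array 3 the highest. The likeness was common, since 265 of 1857 candidate targets, all detected on 6 arrays with a range of at least 1 on the log2 scale, had an r above 0.9 with XBP1. All these values share the same 6 arrays.

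**Figure D3:**
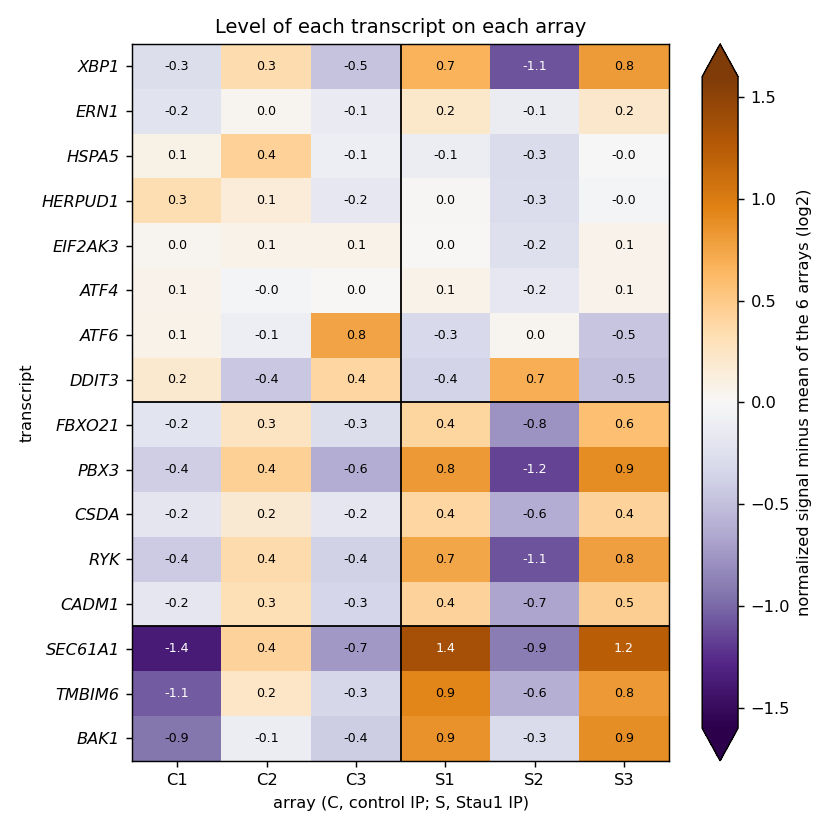
Normalized signal of each transcript minus its mean over the 6 arrays (log2; orange above, purple below) on control IP arrays (C1 to C3) and Stau1 IP arrays (S1 to S3). The upper block holds the 8 members, the middle block the 5 targets most like XBP1, and the lower block 3 transcripts of the wider lists. XBP1, its 5 likest targets, SEC61A1 and TMBIM6 were low on S2 and high on C2, S1 and S3, and DDIT3 showed the opposite order.

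The wider response was read through lists of 111 further genes grouped by function, of which 109 were in the table, 89 were detected on at least 3 arrays and 12 on none. These 12 included targets with mean normalized signals as high as 10.25 and 10.97, so here too a failed detection p does not show absence. By the labels, 0 of the 109 passed the study's limits in either direction. The Stau1 IP arrays all lay above the control IP arrays for 12 and all below for 18, or 11.0% and 16.5% of them, beside 6.71% and 7.76% of all targets and 10.0% and 13.2% of the targets detected on all 6 arrays, as 80 of the listed genes were. Those shares over all targets and over detected targets are the background for the counts of each list below. No list was tested as a set. The median log2 difference of the listed genes was -0.022, against 0.0027 over all targets. When both arrays numbered 2 were left out, 15 of them (13.8%) passed an adjusted p of 0.05, of which 8 were higher and 7 lower in Stau1 IPs. Over all targets that share was 5.46%, and over those detected on all 6 arrays 17.0%. The 2.5-fold limit with an unadjusted p under 0.05 was passed by 3 upwards and 0 downwards, beside 0.602% and 0.0396% of all targets. The caution given for XBP1 holds for every listed gene. A p-value without the arrays numbered 2 follows in part from that choice and is no independent support.

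**Figure D4:**
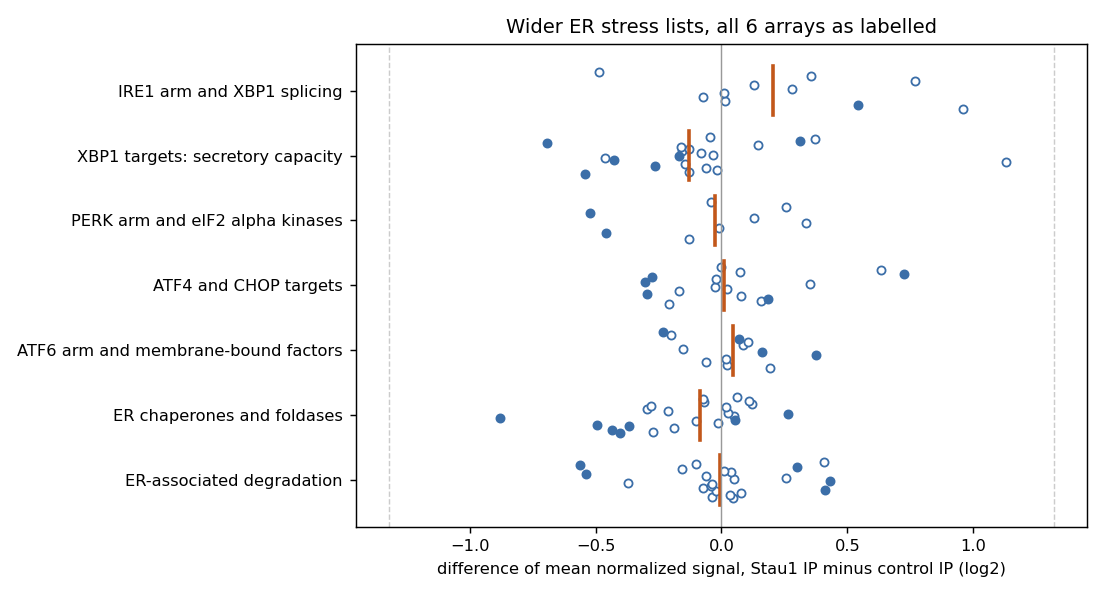
Difference of the mean normalized signal (log2, Stau1 IP minus control IP, all 6 arrays as labelled) of each gene of the 7 wider lists, in rows. Filled circles are genes whose 3 Stau1 IP arrays did not overlap the 3 control IP arrays, orange bars are list medians, and dashed lines mark a 2.5-fold difference, which no gene crossed.

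The IRE1 list holds regulators and partners of the sensor. The Stau1 IP arrays lay above the control IP arrays for 1 of 10 measured genes (10%) and below for 0. The median log2 difference was 0.20. TMBIM6, an ER membrane protein that restrains IRE1, read 7509, 19969 and 12281 in control IPs against 26010, 10866 and 27226 in Stau1 IPs. BAK1, a cell death effector that binds IRE1, read 358, 851 and 577 and then 1588, 559 and 1779 in the same order. For both, Stau1 IP arrays 1 and 3 were the highest, followed by control IP array 2. Their log2 differences by the labels were 0.77 (SE 0.53, adjusted p = 0.793) and 0.96 (SE 0.39, adjusted p = 0.570). With both arrays numbered 2 left out they were 2.97-fold (adjusted p = 0.063) and 2.89-fold (adjusted p = 0.0331) higher. PTPN1, an ER-bound phosphatase, had a log2 difference of 0.28 (adjusted p = 0.892), and 0.78 (adjusted p = 0.0167) without those arrays. BAX, a partner of BAK1 named after its values were seen, had groups that did not overlap and read 391, 550 and 432 in control IPs against 647, 642 and 850 in Stau1 IPs. Its log2 difference was 0.54 (SE 0.079, adjusted p = 0.193), and also 0.54 (adjusted p = 0.0691) without both arrays numbered 2.

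The list of secretory capacity held 20 genes, known targets of XBP1 for the translocon, signal peptide handling and vesicle transport. The Stau1 IP arrays of 1 gene (5%) lay above and of 5 (25%) below the control IPs. The median log2 difference was -0.13. SEC61A1, the channel through which proteins enter the ER, varied widely. It read 3351, 13334 and 5312 in control IPs against 20626, 4959 and 21481 in Stau1 IPs, and was highest on the same 3 arrays as XBP1. Its log2 difference was 1.13 (SE 0.77, adjusted p = 0.790), and 2.35 (SE 0.23, 5.10-fold, adjusted p = 0.0219) without both arrays numbered 2. SEC61B, a smaller subunit of the same channel, read 7528, 7594 and 7005 in control IPs against 5350, 5941 and 5094 in Stau1 IPs. The groups did not overlap, and the log2 difference was -0.43 (SE 0.082, adjusted p = 0.237), or -0.51 (adjusted p = 0.0719) without both arrays numbered 2. SSR4, a translocon-associated protein, had a log2 difference of -0.044 (adjusted p = 0.976). DNAJB9, a chaperone partner of HSPA5 named after its values were seen, read 387, 446 and 449 in control IPs against 267, 254 and 306 in Stau1 IPs, a log2 difference of -0.54 (SE 0.090, adjusted p = 0.211), or -0.67 (adjusted p = 0.0194) without both arrays numbered 2.

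The PERK list of 8 genes had a median log2 difference of -0.024, with 0 genes apart upwards and 2 (25%) downwards. EIF2AK1, the kinase that answers to haem, read 8481, 7056 and 8464 in control IPs against 4857, 6663 and 5914 in Stau1 IPs, a log2 difference of -0.46 (SE 0.14, adjusted p = 0.445), or -0.68 (adjusted p = 0.0197) without both arrays numbered 2. EIF2AK2 (PKR), which like Staufen1 binds double-stranded RNA, read 548, 1598 and 897 in control IPs against 1293, 450 and 1325 in Stau1 IPs, with a difference of -0.0086 (adjusted p = 0.998), which turned to 0.63 (adjusted p = 0.235) without them. Its lowest signal was on Stau1 IP array 2. PPP1R15A (GADD34), the phosphatase subunit that reverses eIF2 alpha phosphorylation, had a difference of 0.26 (adjusted p = 0.857).

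Of 16 targets of ATF4 and CHOP, 10 were detected on at least 3 arrays, 2 lay apart upwards and 3 downwards, and the median log2 difference was 0.010. ASNS, asparagine synthetase, had a difference of -0.21 (adjusted p = 0.858), or -0.50 (adjusted p = 0.120) without both arrays numbered 2. DDIT4, an inhibitor of mTORC1 signalling, had 0.35 (adjusted p = 0.585). CEBPB, a partner of CHOP, had -0.30 (adjusted p = 0.434) with groups that did not overlap, or -0.44 (adjusted p = 0.0195) without both arrays numbered 2. The 12 genes of the ATF6 list had a median of 0.046, with 3 (25%) apart upwards and 1 (8.33%) downwards. NFYC, a subunit of the factor that reads the CCAAT letters of the ER stress element, had -0.20 (adjusted p = 0.938), or -0.72 (adjusted p = 0.0237) without both arrays numbered 2. YY1, a cofactor at the same element, had -0.23 (adjusted p = 0.245), or -0.29 (adjusted p = 0.0451) without them. MBTPS1, the protease that first cuts ATF6, had -0.15 (adjusted p = 0.775).

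Of 22 ER chaperones and foldases, 2 (9.09%) lay apart upwards and 5 (22.7%) downwards. These shares were 6.71% and 7.76% over all targets and 10.0% and 13.2% over those detected on all 6 arrays. The list's median log2 difference was -0.086. ARMET (MANF), a secreted ER stress protein, had a difference of -0.40 (adjusted p = 0.488). P4HB, a protein disulphide isomerase, had 0.26 (adjusted p = 0.542), and ERP29 had -0.10 (adjusted p = 0.809). Among 20 genes of this list with a promoter window, 5 held the ER stress element of XBP1 and HSPA5, and of the 95 such genes over all lists no other did. Of these 5, 2 had groups that did not overlap, both with the Stau1 IPs below. That was so for 7.76% of all targets and 13.2% of those detected on all 6 arrays. So small a count is no result about the element. HSP90B1 (GRP94), the ER form of HSP90, read 6171, 6763 and 4039 in control IPs against 3055, 2417 and 3520 in Stau1 IPs. Its groups did not overlap, and the log2 difference was -0.88 (SE 0.19, adjusted p = 0.279), or -0.67 (adjusted p = 0.225) without both arrays numbered 2. CANX, the lectin chaperone calnexin, had -0.43 (SE 0.084, adjusted p = 0.241), also without overlap, or -0.32 (adjusted p = 0.0693) without both arrays numbered 2. CALR, CRELD2 and PDIA6 had -0.27 (adjusted p = 0.892), -0.19 (adjusted p = 0.924) and 0.016 (adjusted p = 0.983), with overlapping groups, and CALR had -0.72 (adjusted p = 0.0762) without both arrays numbered 2. HYOU1 and SDF2L1, which held ERSE-II as HERPUD1 did, had 0.049 (adjusted p = 0.927) and 0.12 (adjusted p = 0.888).

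In the list of ER-associated degradation, 3 of 22 measured genes (13.6%) lay apart upwards and 2 (9.09%) downwards, with a median log2 difference of -0.0051. SELS (VIMP), which recruits the ATPase VCP to the ER membrane, had -0.54 (SE 0.16, adjusted p = 0.413) and did not overlap. Without both arrays numbered 2 it had -0.66 (adjusted p = 0.195). FAF2, another VCP partner, had -0.041 (adjusted p = 0.988), which turned to 0.35 (adjusted p = 0.503) without both arrays numbered 2, and SYVN1, the ubiquitin ligase HRD1, had 0.037 (adjusted p = 0.980). EDEM2, a mannosidase that marks misfolded glycoproteins and was named after its values were seen, read 668, 911 and 686 in control IPs against 1018, 1000 and 1143 in Stau1 IPs. Its log2 difference was 0.41 (SE 0.063, adjusted p = 0.194) by the labels and also 0.41 (adjusted p = 0.0208) without both arrays numbered 2.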

How the data were processed

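RNA from 3 control IPs and 3 Stau1 IPs was hybridized on Illumina BeadChips, scanned and summarised in BeadStudio by the authors. They deposited for each of 37879 targets the mean bead signal intensity with no background subtraction or normalization, how far its beads varied (their standard error, also an intensity), how many beads there were, and the detection p-value against negative controls. Probes of a target had been combined. No column was left without a sample.

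The steps named in the methods were rebuilt with limma 3.58.1 and mgcv 1.9.3 under R 4.3.3, since the software named there was not used. The negative-control median, taken from the 200 targets with a detection p nearest 0.5, was subtracted. A variance stabilizing transformation was fitted to the bead SD over 500 bins without the lowest 33.3% of signals. Robust spline normalization (10 knots) mapped each array on control IP array 2. The fit without both arrays numbered 2 used these same normalized values, so control IP array 2 still set their scale. Groups were tested with lmFit and eBayes, and p-values were adjusted by Benjamini-Hochberg over all targets. The study's limits were a fold over 2.5 and p under 0.05. Nothing in the labels says that the arrays came from separate cultures, so the p-values measure the spread between these arrays, whose number limits the precision.

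The members, gene lists and tests were chosen with earlier results of these data known. Named genes were the members, STAU1, the 3 detected targets of each list with the highest mean signal, any list gene past the limits, and the 5 targets most like XBP1. Outside this rule and with their values known, BAX, DNAJB9 and EDEM2 were named for groups that did not overlap, HSP90B1, CANX, CALR, CRELD2, PDIA6, HYOU1 and SDF2L1 for a promoter motif, and TTC3 as the 1 target past the adjusted threshold. The alternatives were other transformations, background corrections, normalizations, detection filters, a 2-fold limit, eBayes with trend, the methods' t-test, a replicate block, and leaving out arrays. Leaving out both arrays numbered 2 under quantile normalization or neqc was added after values had been seen. Of the list symbols, 2 (RTCB and ERLEC1) were not found and 4 were matched under an older name. On simulated data (3 arrays against 3, 37879 targets, 200 changed 4-fold), 97.6% of changed targets with a signal over 500 and 34.8% of those up to 500 were recovered. There were 0 false calls at the study's limits and 10 at the adjusted p. All simulated arrays had the same small spread and none stood apart, unlike Stau1 IP array 2, so this recovery does not carry over to the comparison by the labels. Promoter windows were searched in Python 3.11.15, and plots were drawn with matplotlib 3.10.9 and pandas 2.3.3. Total RNA, protein and probe sequences were not analysed here.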

Additional observations from a re-analysis of the deposited data

How the results depend on the processing

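Of 188 values for the 8 members under the alternatives, 172 kept their direction and their side of the threshold, 10 turned sign and 6 gained a call, all 6 without both arrays numbered 2. Part of the 172 could not have turned sign. Leaving out the background correction returned the main difference, SE and p-value for every member. Filtering on detection, blocking on the replicate number or testing in another way changed the SE and p-value but not the difference. The 172 therefore overstates how far the directions were tested. For XBP1 the log2 difference of 0.26 ranged from -0.083 to 0.87 when single arrays were left out, and it turned sign without Stau1 IP array 1 (-0.014) or 3 (-0.083). Without both arrays numbered 2 it was 1.10, and 1.11 (adjusted p = 0.00883) with quantile normalization as well. ATF4 turned sign at values near 0, with 0.050 without Stau1 IP array 2 (range without single arrays -0.069 to 0.050), 0.028 without both arrays numbered 2, and 0.0034 and 0.0041 when quantile normalization or neqc was used as well. DDIT3, which ranged from -0.47 to 0.12 without single arrays, turned to 0.076 without control IP array 3, 0.054 without Stau1 IP array 1 and 0.12 without Stau1 IP array 3, and EIF2AK3 to 0.0055 with no between-array normalization. No member passed the study's limits under any alternative.

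The array-wide counts were less stable. The 1 target enriched in Stau1 IPs became 43 with the mean squared bead SD as the constant term of the transformation, 3 with neqc, 421 with plain log2 values floored at 1, 14 with no between-array normalization, 3 with eBayes with trend and 10 at a 2-fold limit. It was between 0 and 104 when single arrays were left out, with 104 without Stau1 IP array 2, and 228 without both arrays numbered 2 (231 with quantile normalization, 230 with neqc). The 0 depleted targets became 86, 6 and 518 under the first 3 of these settings and 11 at 2-fold. They were 0 to 8 without single arrays, and 15, 19 and 99 without both arrays numbered 2. For the wider lists the 0 calls became 1 under the other constant term, 1 with plain log2 values, 0 to 2 without single arrays (2 without Stau1 IP array 2), and 3, 3 and 4 without both arrays numbered 2. The cause was not tested.

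Same-numbered arrays did not deviate together (r of -0.45, -0.77 and -0.38). The deviations were taken from the means of the labelled groups, which an exchange of arrays would alter. The check therefore cannot settle whether the numbers pair the samples. With the replicate number as a block, 0 targets were enriched. XBP1 had an adjusted p of 0.985 there, at the same difference of 0.26, which this block cannot change. Signals near background, as for ERN1 and EIF2AK3, limit what can be seen, since the transformation compresses them. In the simulation this compression reached further. Targets changed 4-fold had median log2 differences of 1.94 when raised and -1.73 when lowered at background-subtracted signals over 500. Up to 500 these medians were 1.41 and -0.764. Differences of genes in that lower range, DNAJB9 and on most arrays HSPA5 among them, may thus be understated.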
